A study of Mus musculus with 71 samples.

Results

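The transcripts described here encode 10 subunits of the Polycomb repressive complexes, Ezh2, Suz12, Eed, Jarid2, Mtf2, Rnf2, Ring1, Cbx7, Kdm2b and Pcgf6, chosen by gene name from the 21527 genes in the tables. All 10 were found. They were followed in male mouse embryonic stem cells (mESCs) grown in 2i/LIF medium, which holds the cells in a naive pluripotent state. RNA was labelled with 100 µM s4U, a uridine analogue, for 24 h, and the label was then chased with uridine for 0, 1, 1.5, 2.3, 3.5, 5.3, 8 or 12 h, called T0 to T7. STM2457, an inhibitor of the m6A methyltransferase Mettl3, or DMSO, the solvent control, was added 6 h before the chase and kept until harvest, so that treatment had lasted 6 h at T0 and 18 h at T7. Each group of treatment and chase point held 4 libraries, except STM2457 at T4 with 3, and 4 libraries per treatment came from cells without s4U. How long the cells without s4U were treated was not given. The study describes its replicates as independent biological ones. SLAM-seq reads s4U as T-to-C conversions after alkylation, and the 3′ end libraries gave both a read count and a conversion rate for each transcript.

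Polycomb repressive complex 2 (PRC2) methylates histone H3 on lysine 27. Ezh2 is its catalytic subunit, Suz12 and Eed are core subunits without which the enzyme is not active, and Jarid2 and Mtf2 are accessory subunits that help to bring it to chromatin. Polycomb repressive complex 1 (PRC1) ubiquitinates histone H2A through the E3 ligases Rnf2 (RING1B) and Ring1. Cbx7 reads H3 lysine 27 methylation in canonical PRC1, whereas Kdm2b and Pcgf6 belong to variant forms, and Kdm2b binds unmethylated CpG islands. In mESCs both complexes hold developmental genes silent. Mettl3 deposits m6A on mRNA, and this mark is known to promote the decay of many transcripts.

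The 71 libraries held 4539726 to 7368244 counted reads, of which 22.5% to 28.8% mapped to several positions. None of the 105 replicate pairs was identical. Pou5f1, a defining marker of pluripotent cells, had a mean of 819 CPM, read counts scaled to the same library total, and 6 of 7 fibroblast feeder markers had a mean under 1 CPM, the highest being Col1a1 with 0.505, at 0 in 34 libraries, while Postn and Col3a1 were at 0 in 71 and 69. The seventh, Thy1, had a mean of 10.8 CPM and was at 0 in no library. Reads in the windows of 9 members numbered at least 154 per library, but those of Ring1 ranged from 7 to 63, with a median of 36, which limits everything said of that gene. For Kdm2b, 79.9% of the reads were multimapping, against 8.88% for Jarid2 and at most 1.54% for the other members. The last 500 bases of the annotated Kdm2b 3′ untranslated region (UTR) lie opposite the transcript of Rnf34, a gene on the other strand, and all 451 windows of 50 bases from that stretch were found there in reverse complement. For Cbx7, 48 of 451 such windows were found in reverse complement in Apobec3. Whether counting used strand is not given in the sources used here. Reads of Kdm2b and Rnf34, and some of Cbx7 and Apobec3, may therefore not be told apart.

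Because Mettl3 methylates adenosines within short consensus letters, GGACT was searched on the transcript strand of the annotated 3′ UTRs (GENCODE M21, GRCm38, longest protein-coding 3′ UTR of each gene). It was held by 6 of the 10 members, at a median of 0.504 per kb, against 63.2% of the 12189 tested genes with such a 3′ UTR, at a median of 0.712 per kb. In the last 250 bases, 2 of 10 members held it, against 19.3% of 10638 genes. Ezh2, Suz12, Ring1 and Kdm2b had no match, and Eed, with 1 match in 283 bases, lay at or above 94.6% of genes in matches per kb. The match nearest the stop codon is shown for the members that have one, with GGACT in capitals, so that the surrounding letters can be compared. The study counted GGACH, in which the last letter may be A, C or T, and did so in coding sequences as well. Those other forms and regions were not searched here. A match describes the letters only and does not show methylation, and the lack of a match does not show that methylation is absent.
Eed, chr7:89954754-89954778, minus strand: cttcctgctcGGACTttactgcttt
Jarid2, chr13:44921387-44921411, plus strand: aaactgctttGGACTatttaacgat
Mtf2, chr5:108106946-108106965, plus strand: ctgtaGGACTgaacgtaatg
Rnf2, chr1:151471123-151471147, minus strand: tttgtggaaaGGACTctgtgattca
Cbx7, chr15:79916679-79916703, minus strand: taggggcatgGGACTaaatgcctgt
Pcgf6, chr19:47034289-47034313, minus strand: cccagagctgGGACTctgccctcca
The matches in Mtf2, Rnf2, Eed and Pcgf6 began 5, 178, 168 and 325 bases after the stop codon, and those in Jarid2 and Cbx7 began 1444 and 1625 bases after it. The Rnf2 3′ UTR used here ends inside the annotated gene, at position 151469405, whereas the gene reaches 151458004. Whether the reads counted for Rnf2 came from that end was not tested.

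The first comparison asked whether read counts differed between STM2457 and DMSO when the 8 chase points were weighted equally. Ezh2, Eed and Cbx7 fell and Jarid2, Mtf2 and Kdm2b rose, whereas Suz12, Rnf2, Ring1 and Pcgf6 did not pass the test. Thus 6 of 10 members passed an edgeR adjusted p under 0.01, against 26.3% of the 12659 genes tested. The 3 that rose and the 3 that fell stand beside 13.8% and 12.5% of all genes in those directions. The median difference over the 10 members was -0.02 on the log2 scale, against -0.01 over all genes, so the members did not move together. All of these differences are relative to the bulk of genes, because libraries were scaled to one another by TMM. A shift shared by most genes would not show in them. In bulk samples, fewer cells of a type and less RNA per cell cannot be told apart.

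**Figure D1:**
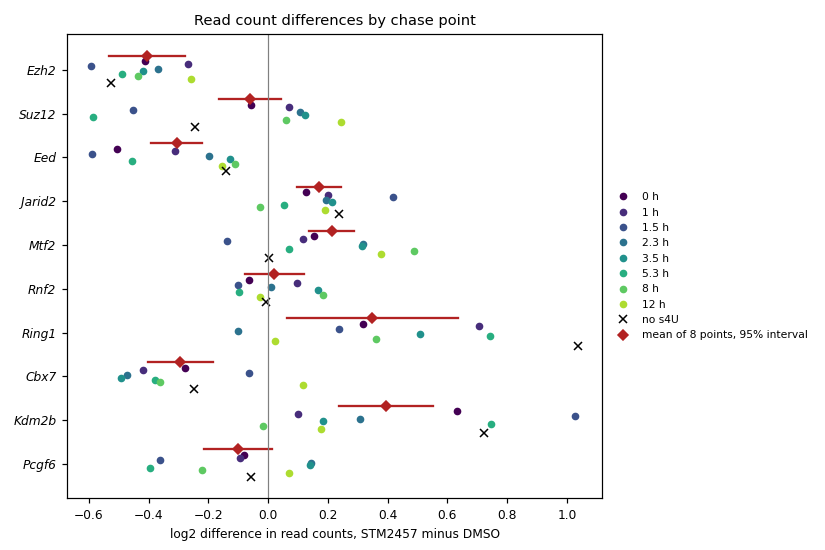
Log2 difference in read counts, STM2457 minus DMSO, for each gene: circles, the 8 chase points by colour; crosses, libraries without s4U; red diamonds, the mean of the 8 points with its 95% interval. The intervals of Ezh2, Eed and Cbx7 lie below 0 and those of Jarid2, Mtf2, Kdm2b and Ring1 above it, with Ring1 not past the adjusted threshold.

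Within the PRC2 core, the catalytic subunit and Eed were lower and Suz12 was not called. Ezh2 ranged from 39 to 99.4 CPM in the 32 labelled DMSO libraries, with a median of 58.9, and from 27.5 to 88.6 in the 31 STM2457 libraries, with a median of 46.1. The groups overlapped, but 25 of the 31 treated libraries lay below the DMSO median. Ezh2 fell by 24.5% (log2 difference -0.41 ± 0.06, SE, edgeR adjusted p = 2.5e-07). Ezh2 was below DMSO at 8 of 8 chase points, with log2 differences from -0.59 to -0.26, and at -0.53 without s4U.

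Eed, which binds trimethylated H3 lysine 27 and stimulates the enzyme, ranged from 75.2 to 149 CPM in DMSO, with a median of 102, and from 65.4 to 112 in STM2457, with a median of 81.2. In 29 of 31 treated libraries it lay below the DMSO median. It fell by 19.1% (log2 difference -0.31 ± 0.04, SE, edgeR adjusted p = 5.5e-09). Suz12, the scaffold of the core, ranged from 117 to 233 in DMSO and from 105 to 235 in STM2457, with medians of 162 and 147. The ranges nearly coincided. Its log2 difference was -0.06, with a 95% interval from -0.16 to 0.04 (edgeR adjusted p = 0.38), and it became 0.09 when T2 and T5 were left out.

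Both PRC2 accessory subunits were higher. Mtf2 ranged from 123 to 227 CPM in DMSO, with a median of 168, and from 156 to 237 in STM2457, with a median of 204. Only 4 of 31 treated libraries lay below the DMSO median. It rose by 15.9% (log2 difference 0.21 ± 0.04, SE, edgeR adjusted p = 3.4e-06), but in the libraries without s4U its log2 difference was 0.00. Jarid2 ranged from 98.0 to 167 in DMSO, with a median of 142, and from 115 to 195 in STM2457, with a median of 150. The groups overlapped over most of their range, and 11 of 31 treated libraries lay below the DMSO median. It rose by 12.6% (log2 difference 0.17 ± 0.04, SE, edgeR adjusted p = 1.2e-04), and by 0.20 on the log2 scale with multimapping reads left out.

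The PRC1 ligases were not called. Rnf2 had medians of 96.9 and 97.8 CPM in DMSO and STM2457, with ranges from 75.8 to 144 and from 79.6 to 175, and its log2 difference of 0.02 had a 95% interval from -0.08 to 0.12. Ring1 had medians of 4.98 and 6.68, from 1.27 to 9.42 and from 3.84 to 11.2. Its log2 difference of 0.35 had an interval from 0.06 to 0.64 and missed the threshold of 0.01 (edgeR adjusted p = 0.049). At this low depth, a difference of this size was not resolved at that threshold.

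Of the PRC1 subunits that set the form of the complex, Cbx7 fell and Kdm2b rose. Cbx7 ranged from 68.7 to 142 CPM in DMSO, with a median of 99.4, and from 59.6 to 104 in STM2457, with a median of 80.4. In 28 of 31 treated libraries it lay below the DMSO median, and it fell by 18.5% (log2 difference -0.29 ± 0.05, SE, edgeR adjusted p = 8.0e-06). Kdm2b ranged from 32 to 104 in DMSO, with a median of 74.3, and from 46 to 139 in STM2457, with a median of 93.8. Only 5 of 31 treated libraries lay below the DMSO median.

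Kdm2b rose by 31.5% (log2 difference 0.39 ± 0.08, SE, edgeR adjusted p = 4.4e-05). With multimapping reads left out its medians were 18.8 and 25.6 CPM and its log2 difference 0.34 (edgeR adjusted p = 0.0059). The opposite-strand gene Rnf34 had a log2 difference of 0.14 that was not called (edgeR adjusted p = 0.094), and 0.201% of its reads were multimapping. The part of either in the Kdm2b values was not tested. Without T2 and T5 the Kdm2b difference was 0.23 (edgeR adjusted p = 0.049), and without replicate 3 it was 0.31 (edgeR adjusted p = 0.014), neither under 0.01. Pcgf6, the PCGF subunit of the PRC1.6 form, had medians of 56.5 and 51.1 and a log2 difference of -0.10 (95% interval from -0.21 to 0.01, edgeR adjusted p = 0.17).

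**Figure D2:**
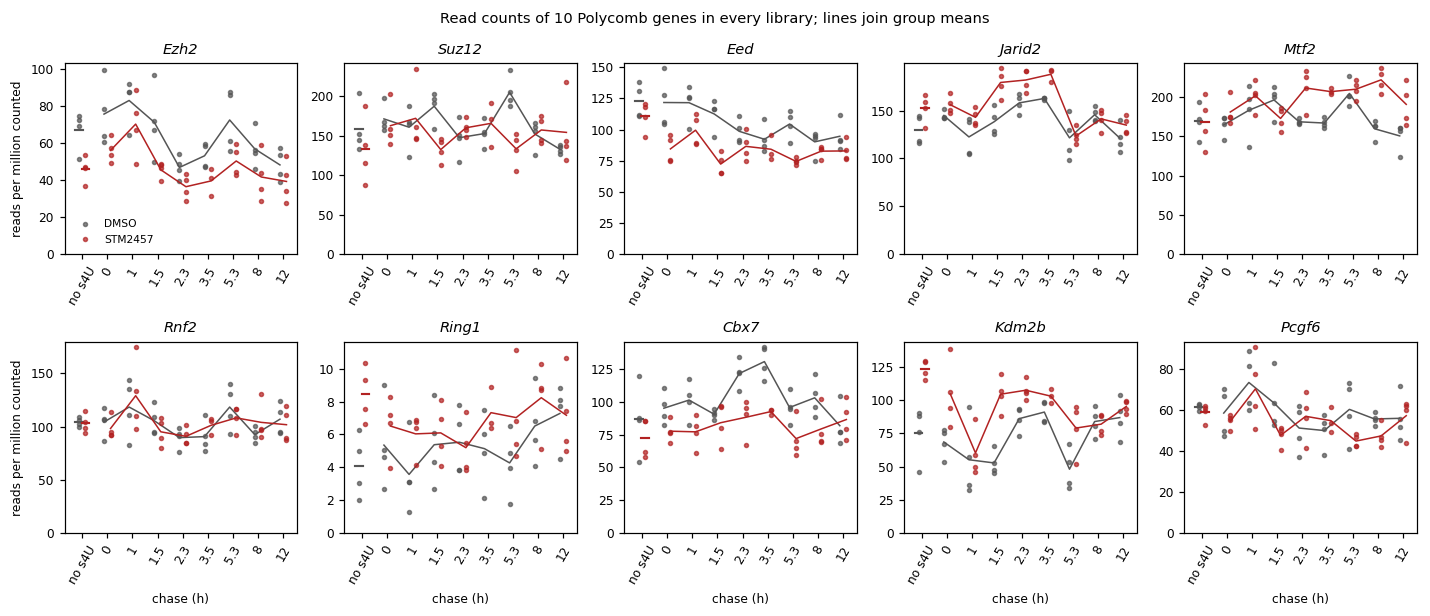
CPM of each gene (y axis, from 0) in every library against the hours of chase (x axis, evenly spaced), DMSO in grey and STM2457 in red; lines join group means, and short bars mark the means without s4U. Eed and Ezh2 are lower in STM2457 at each of the 8 points, and the levels of several genes go up and down between neighbouring points in both treatments.

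Taken point by point, fewer differences passed. Each group held 4 libraries, or 3 for STM2457 at T4. At T0, 1 of 10 members was called, against 1.72% of genes. Eed had 104, 106, 127 and 149 CPM in DMSO and 74.8, 76.0, 92.1 and 95.4 in STM2457. The groups did not overlap, and Eed fell by 0.51 on the log2 scale after 6 h of treatment (edgeR adjusted p = 0.0041).

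At T2, 3 of 10 members were called, against 7.88% of genes, the highest share of any point. Eed fell by 0.59 (edgeR adjusted p = 0.00025) and Jarid2 rose by 0.42 (edgeR adjusted p = 0.0029). Kdm2b had 44.8, 47.5, 53 and 65.7 CPM in DMSO and 88.4, 103, 107 and 120 in STM2457. No library of one group reached the other, and the log2 difference was 1.03 (edgeR adjusted p = 0.00080). With multimapping reads left out it was 0.74 and was not called (edgeR adjusted p = 0.065). The Kdm2b DMSO mean at T2 was 52.7 CPM, where the 8 DMSO groups ran from 48 at T5 to 91.1 at T4. At T5, 2 of 10 were called, against 4.29% of genes. Suz12 had 187, 195, 205 and 233 in DMSO and 105, 132, 145 and 152 in STM2457, a log2 difference of -0.59 (edgeR adjusted p = 0.0045). Its DMSO mean of 205 at T5 was the highest of the 8 DMSO groups, so the separation came with a high control group.

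At T6, 1 of 10 was called, against 2.36% of genes. Mtf2 had 143, 163, 163 and 169 CPM in DMSO and 204, 216, 230 and 237 in STM2457, without overlap, and rose by 0.49 on the log2 scale (edgeR adjusted p = 0.0013). At T1, T3, T4 and T7 no member passed edgeR's test, beside 1.56%, 1.6%, 1.27% and 5.45% of genes, with 2, 3, 3 and 1 members at an unadjusted p under 0.05. In the libraries without s4U no member passed either, beside 2.61% of genes, and 4 had an unadjusted p under 0.05. There the log2 differences of the 6 members called in the mean contrast were -0.53 for Ezh2, -0.14 for Eed (edgeR adjusted p = 0.54), -0.25 for Cbx7, 0.24 for Jarid2, 0.72 for Kdm2b (edgeR adjusted p = 0.032) and 0.00 for Mtf2. Those of Suz12, Rnf2, Pcgf6 and Ring1 were -0.24, -0.01, -0.06 and 1.04 (edgeR adjusted p = 0.11 for Ring1). With multimapping reads left out, the Kdm2b difference without s4U was 0.68 (edgeR adjusted p = 0.14). Over the 8 chase points, Jarid2, Mtf2, Kdm2b and Ring1 were above DMSO at 7 of 8 points, Cbx7 was below it at 7 of 8, and Rnf2 was split 4 and 4.

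To look at the s4U label, T0 was compared with the libraries without s4U. Their time of treatment was not given, so it may differ along with the label. No member was called by edgeR in DMSO, in STM2457 or in their difference, beside 0.569%, 0.545% and 0% of genes, and 0, 1 and 1 members had an unadjusted p under 0.05.

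The second comparison followed read counts over the chase, as a linear trend scaled to 12 h. In DMSO 6 of 10 members fell, against 25.6% of genes called in either direction and 13.5% that fell. Ezh2 fell by 0.68 on the log2 scale (SE 0.14, edgeR adjusted p = 0.00011), Eed by 0.50, Suz12 by 0.42, Cbx7 by 0.38, Mtf2 by 0.35 and Jarid2 by 0.31. Rnf2 (-0.16), Ring1 (0.48), Kdm2b (0.30) and Pcgf6 (-0.30) were not called. In STM2457 2 of 10 fell, against 12.9% of genes called and 7.02% that fell. These were Ezh2, by 0.58 (edgeR adjusted p = 0.0019), and Jarid2, by 0.45 (edgeR adjusted p = 1.9e-05). The trends not called were -0.17 for Suz12, -0.19 for Eed, 0.00 for Mtf2, -0.11 for Rnf2, 0.27 for Ring1, -0.07 for Cbx7, -0.15 for Kdm2b and -0.24 for Pcgf6.

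The difference between those trends was itself tested, and no member passed by edgeR or by DESeq2, beside 3.39% of genes by edgeR. Eed and Mtf2 had an unadjusted p under 0.05. For Mtf2, which fell in DMSO and had a trend of 0.00 in STM2457, the difference of 0.35 (95% interval from 0.12 to 0.59) had an edgeR adjusted p of 0.054. For Eed it was 0.32 (interval from 0.05 to 0.58, edgeR adjusted p = 0.14). The other differences were 0.10 for Ezh2, 0.25 for Suz12, 0.31 for Cbx7, 0.05 for Rnf2, 0.05 for Pcgf6, -0.14 for Jarid2, -0.21 for Ring1 and -0.45 for Kdm2b. The trends were not smooth. Ezh2 in DMSO averaged 82.9 CPM at T1 and 46.8 at T3, and 70.1 and 36.4 at the same points in STM2457.

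Other genes of both complexes were examined in the same mean contrast, where 26.3% of all genes passed. Of 8 further PRC2 subunits tested, 1 rose and 4 fell, with a median log2 difference of -0.12. Epop, an accessory subunit of the PRC2 form that also holds Mtf2, rose by 0.30 (edgeR adjusted p = 1.4e-09). The largest falls were in Phf19 (-1.11, at a mean of only 1.91 CPM), in Rbbp7, a histone-binding subunit (-0.23, edgeR adjusted p = 2.2e-10), and in Lcor (-0.13). Ezh1, the alternative catalytic subunit, had a log2 difference of 0.00. Of 25 further PRC1 genes, 7 rose and 0 fell, with 18 not called and a median of 0.06. Bcorl1, of a variant form that also holds Kdm2b, rose by 0.85 (edgeR adjusted p = 1.2e-05), and Cbx2, which like Cbx7 reads methylated H3, rose by 0.59.

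Of 13 erasers of these marks and opposing factors, Asxl1, a subunit of the H2A deubiquitinase, rose by 0.29, Kdm6b, a demethylase of H3 lysine 27, fell by 0.30, and 11 were not called. Of 22 Polycomb target genes that were expressed enough to be tested, 3 rose, 2 fell and 17 were not called. Irx3 rose by 0.58, and Nkx2-9 and T fell by 0.71 and 0.44. The pluripotency markers moved alongside, since 5 of 7 tested rose, with the largest differences in Zfp42 (0.69), Esrrb (0.64) and Tbx3 (0.45), while Pou5f1 differed by 0.00. Their part in the Polycomb values was not tested. Of 6 primitive endoderm markers only Gata4 was above 1 CPM. Of 6 primed epiblast and mesoderm markers only Fgf5 was under 1 CPM, and T was the highest with a mean of 20.4. Klf4, another pluripotency marker, had a mean of 2.8 CPM and was at 0 in 3 libraries.

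Each member was also compared with all genes of at least 10 CPM by the correlation of group means over the 18 groups, as a description. The closest gene was Cap1 for Ezh2 (Pearson's r = 0.961) and Ythdf3 for Kdm2b (r = 0.972), from 7949 candidates. For Eed it was Jpt2 (r = 0.907), for Jarid2 Ppp2r2a (r = 0.923) and for Suz12 Hnrnpa0 (r = 0.84). For Mtf2 it was Nif3l1 (r = 0.874), for Rnf2 2610021A01Rik (r = 0.942), for Cbx7 Map3k7 (r = 0.872), for Pcgf6 Ahcy (r = 0.885) and for Ring1 Dxo (r = 0.879). Among the members, Ezh2 was closest to Eed (r = 0.717), Eed to Pcgf6 (r = 0.74) and Jarid2 to Kdm2b (r = 0.662). The groups share their treatment and chase, so these values are not independent of the contrasts above.

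The third comparison concerned the decay of the s4U label. At T0 the conversion rate of the 9 members other than Ring1 averaged between 1.37% (Mtf2) and 1.69% (Cbx7) in DMSO, and between 1.17% (Kdm2b) and 1.55% (Pcgf6) in STM2457. For Ezh2 it was 1.58% ± 0.44 and 1.33% ± 0.21 (SD, n = 4), from 789 and 466 conversions. Its unlabelled libraries averaged 0.054% and 0.028%. No member and no gene differed between treatments at T0 by edgeR on conversions per covered T (0% of 10077 genes called). The member differences ranged from -1.42 (Ring1) to -0.08 (Pcgf6) on the log2 scale, and none had an unadjusted p under 0.05, against 105 genes.

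Both curves of every member ended near background. Over 9 members, a median of 46.4% of the label at T0 was left at 3.5 h and 6.01% at 5.3 h in DMSO, and 49.2% and 7.44% in STM2457. The fitted exponentials gave medians of 24.2% and 28.6% at 5.3 h, and the median over members lay above the fitted median at each point between T0 and 5.3 h and below it from 5.3 h on. Individual members did not all follow this. The same step was seen over all transcripts that passed the filters, whose median went from 59.5% to 14.5% in DMSO. At 12 h, 27 of 40 DMSO libraries and 28 of 40 STM2457 libraries over the 10 members were at or below the highest rate of the unlabelled libraries of that gene.

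**Figure D3:**
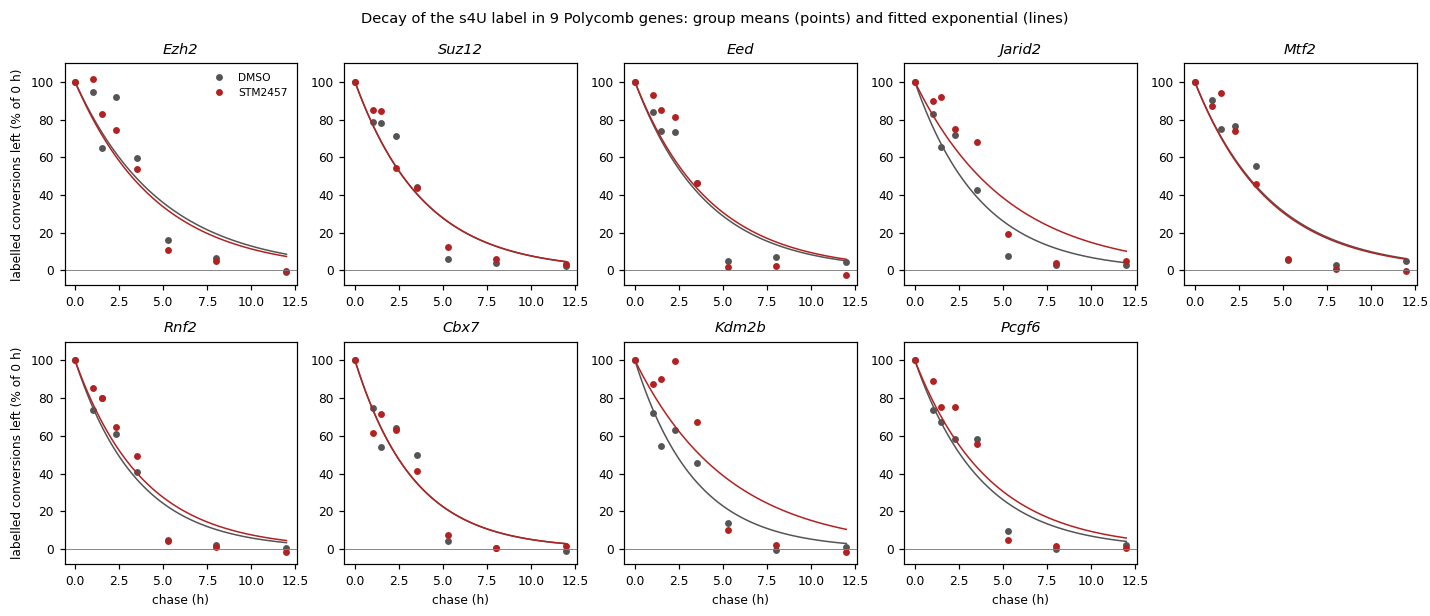
Label left, as a percentage of the background-subtracted conversion rate at 0 h, against hours of chase for 9 genes; points are group means, lines the fitted exponential, DMSO in grey and STM2457 in red. The points of all 9 genes drop between 3.5 and 5.3 h to under the fitted lines, and the red points of Jarid2 and Kdm2b lie above the grey ones from 1 to 3.5 h. Each curve is relative to its own rate at 0 h, which was lower in STM2457 for all 9 genes, though not called. It was 1.505% in DMSO and 1.191% in STM2457 for Jarid2, and 1.539% and 1.173% for Kdm2b.

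Half-lives passed the filters for 9 of 10 members; Ring1 failed, with a residual standard error of 0.676 in STM2457 against a limit of 0.3. In DMSO they ran from 2.315 h for Cbx7 to 3.39 h for Ezh2, with a median of 2.59 h, beside 3.19 h over 7407 transcripts. In STM2457 they ran from 2.314 h for Cbx7 to 3.67 h for Kdm2b, with a median of 2.93 h, beside 3.45 h. Thus 8 of 9 members in DMSO and 7 of 9 in STM2457 were shorter than the median transcript. The PRC2 core had half-lives of 3.39 h (Ezh2), 2.70 h (Suz12) and 2.79 h (Eed) in DMSO and of 3.19, 2.70 and 2.93 h in STM2457.

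Among the others, Jarid2 had 2.59 and 3.64 h, a ratio 40.7% above 1, and Kdm2b had 2.34 and 3.67 h, a ratio 56.8% above 1. Mtf2 had 3.00 and 2.94 h, Rnf2 had 2.44 and 2.67 h, and Pcgf6 had 2.58 and 2.92 h. The half-life was longer in STM2457 for 6 of 9 members, beside 56.7% of all transcripts that passed, but the log2 ratio of one of these, Suz12, was 0.00. None of the alternative settings left out multimapping reads, which were 79.9% of those of Kdm2b and 8.88% of those of Jarid2. Under these settings the log2 ratio kept its sign for Jarid2 (0.38 to 0.64) and Kdm2b (0.39 to 1.01). It changed sign for Suz12 (-0.19 to 0.09), Eed (-0.07 to 0.30), Rnf2 (-0.10 to 0.28), Pcgf6 (-0.04 to 0.41), Ezh2 (-0.34 to 0.21), Cbx7 (-0.10 to 0.14) and Mtf2 (-0.14 to 0.05). The median log2 ratio of 0.07 over the members was also that of all transcripts.

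The spread of half-lives was taken from 4 replicate series per treatment. A series joined the separately harvested libraries of 1 treatment that share a replicate number, and the labels give no further link between them. Every series of a treatment used the same background, the mean of its 4 unlabelled libraries. STM2457 series 4 was fitted without T4, for which it has no library. Kdm2b had half-lives of 1.53, 2.15, 2.41 and 3.60 h in DMSO and 2.97, 3.51, 3.97 and 4.00 h in STM2457. The groups overlapped through 1 DMSO series, and the log2 difference of 0.63 gave a two-sided exact permutation p of 0.086, where 4 against 4 can reach 0.029. Jarid2 had 1.99, 2.45, 2.80 and 3.46 h in DMSO and 3.17, 3.27, 3.63 and 4.14 h in STM2457, with a log2 difference of 0.43 and the same exact permutation p. For the other 7 members the exact permutation p was at least 0.71, and their log2 differences lay between -0.19 (Ezh2) and 0.12 (Pcgf6).

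**Figure D4:**
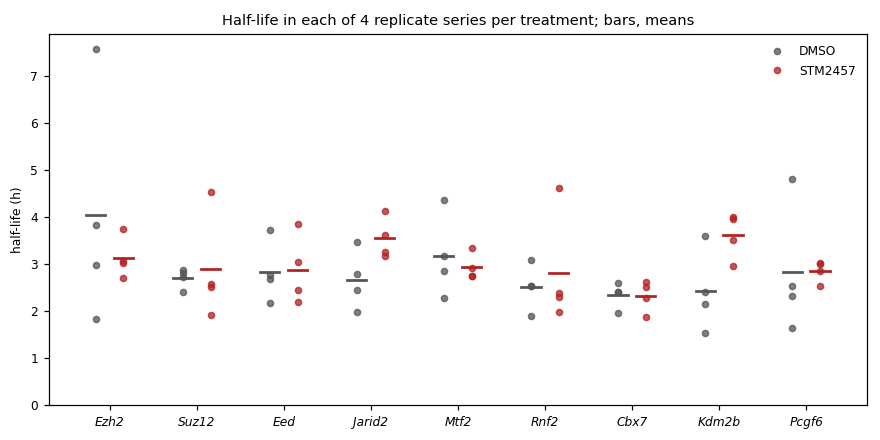
Half-life in hours (y axis, from 0) of 9 genes in each of 4 replicate series per treatment, DMSO in grey and STM2457 in red, with bars at the means. The series of the 2 treatments overlap for every gene; those of Jarid2 and Kdm2b overlap through 1 DMSO series each.

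No member passed limma's test of the series, and neither did any of 5767 transcripts (0% called; 392 had an unadjusted p under 0.05, and no member did). The 95% interval of the Kdm2b difference ran from -0.02 to 1.29 on the log2 scale (limma adjusted p = 0.74), and that of Jarid2 from -0.13 to 0.99 (limma adjusted p = 0.80). For Suz12, Eed and Cbx7 the intervals ran from -0.63 to 0.67, from -0.60 to 0.63 and from -0.53 to 0.49. These intervals are not adjusted for the number of transcripts. Changes within them were therefore left unresolved with 4 series, and larger changes could also miss the adjusted threshold.

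A count model of conversions per covered T gave the slope of the label over 12 h without subtracting background. The rates of all 10 members fell in both treatments, as did those of 96.2% and 95.8% of genes. The slopes differed between treatments for 2 of 10 members, against 6.92% of genes. The Cbx7 rate fell by 6.54 in DMSO and fell by 4.90 in STM2457 on the log2 scale, a difference of 1.64 ± 0.53 (SE, edgeR adjusted p = 0.037). The Eed rate fell by 3.99 and fell by 5.31, a difference of -1.32 ± 0.40 (SE, edgeR adjusted p = 0.022). The differences not called were 0.91 for Suz12, -0.59 for Ezh2, 0.12 for Jarid2, -0.37 for Mtf2, -0.40 for Rnf2, 1.95 for Ring1, 0.34 for Kdm2b and -0.09 for Pcgf6.

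Both calls were lost without T7, where the lower of the rates compared was also under the background. Cbx7 at T7 had 0.027% in DMSO, from 12 conversions, beside 0.049% without s4U, and 0.083% in STM2457. Eed at T7 had 0.053% in STM2457, from 28 conversions, beside 0.081% without s4U, and 0.15% in DMSO. Without T7 the differences were 0.94 for Cbx7 (edgeR adjusted p = 0.47) and -1.02 for Eed (edgeR adjusted p = 0.28), and from T0 to T4 alone they were -0.51 and -0.02, with edgeR adjusted p = 0.96 and 1. Cbx7 was also not called without replicate 2, 3 or 4 (1.29, 1.52 and 1.69) nor without T4 (1.60), and Eed was not called without replicate 2 or 4 (-1.02 and -1.22).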

How the data were processed

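The authors mapped 3′ end reads to GRCm38.p6 with SLAM-DUNK, allowing up to 100 positions, masked variants called in the unlabelled libraries, counted on 3′ UTR annotations and collapsed them per gene. FastQC 0.11.8 is named in the submitters' processing notes. They deposited raw counts of reads, multimapping reads, covered T positions and conversions, and the conversion rate as a fraction, which equals conversions over covered T in every entry checked. The deposited CPM values and counts of reads with conversions entered no result. Chase hours, the sex of the cells, the medium and the independence of replicates are given in the study. Treatment, chase point and replicate number come from the labels. Differences in read counts used edgeR 4.0.16 (quasi-likelihood, TMM, filterByExpr) on 71 libraries and 12659 genes, Benjamini-Hochberg adjusted p under 0.01. Half-lives followed the study: an exponential fixed at T0, mean T coverage over 100, 0.67 to 18 h, residual standard error at most 0.3; their ratio used limma 3.58.1 and an exact permutation test, and slopes used edgeR with log T coverage as offset, both under 0.05. On simulated read counts, 28.3% of genes changed by 0.25 and 61.6% of those changed by 0.5 on the log2 scale were recovered for the mean contrast (12459 genes), and for slope differences 17% of those changed by 1 and 30% of those changed by 2 (10077 genes). Members, lists and tests were chosen with earlier results of these data known. All 10 members are named in each comparison, except at single chase points and in the label contrasts, where those called are named or a range is given; of a list, at most the 3 largest rises and 3 largest falls are named, and a marker where it is near 0 or passes. Ezhip, Cbx6, Sox2 and 3 of the 38 listed Polycomb target genes were not analysed here. Some genes that the naming rule selects are not reported here.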

Additional observations from a re-analysis of the deposited data

Results flagged for a closer look

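In 8 of 188 groups of 4 values, 1 value stood apart from the other 3 by more than Dixon's 95% critical value, where chance alone gives about 1 in 20. Among read counts in CPM, Ezh2 had 64.5 in DMSO replicate 1 at T1, beside 87.6 to 91.8 in the others, and Eed had 75.2 in DMSO replicate 2 at T6, beside 93.5 to 96.9. Jarid2 had 152 in DMSO replicate 4 at T0, beside 142 to 143, and Mtf2 had 123 in DMSO replicate 2 at T7, beside 157 to 161. In STM2457, Rnf2 had 113 in replicate 1 at T0, Ring1 had 4.11 in replicate 3 at T1, and Pcgf6 had 44.1 in replicate 4 at T7, the last beside 59.9 to 62.9. Among half-lives, Rnf2 had 4.62 h in STM2457 series 3, beside 1.98 to 2.38 h. The cause was not tested.

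The decay slope differed between treatments for Eed (-1.32) and Cbx7 (1.64) on the log2 scale over 12 h, by edgeR's test of the difference, in opposite directions. Both calls were lost without T7.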

How the results depend on the processing

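For the mean read count contrast, the 3 members that rose and the 3 that fell were still called by DESeq2, with other size factors, without the filter, with the replicate block, without multimapping reads and without T4. Leaving out 1 replicate left 2 or 3 higher and 3 lower, and at an adjusted p under 0.05 Ring1 joined them (4 higher). In the contrast of the 8 unlabelled libraries the counts were 0 higher and 0 lower, with fewer samples. The direction reversed for Rnf2 (-0.00 without replicate 1, -0.01 in unlabelled libraries) and, without T2 and T5, for Suz12 (0.09). For the difference in trend over the chase, 0 members were called under each alternative; leaving out 1 replicate gave -0.47 to 0.04 for Ring1, -0.09 to 0.38 for Pcgf6 and -0.13 to 0.22 for Rnf2, the sign reversing in each.

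The slope calls were the least stable. They numbered 0 higher and 0 lower without T7 and from T0 to T4, 0 higher without T4, and 2 lower with background subtracted, where Mtf2 (-2.02) joined Eed. Leaving out a replicate left 0 or 1 in each direction. Signs reversed without T7 for Mtf2 (0.14), Rnf2 (0.12) and Pcgf6 (0.83), from T0 to T4 for Suz12 (-0.43), Rnf2 (0.70), Ring1 (-1.48) and Cbx7 (-0.51), and with background subtracted for Ezh2 (2.16). Leaving out 1 replicate gave -0.08 to 0.56 for Jarid2, -0.90 to 0.22 for Rnf2, -0.15 to 0.93 for Kdm2b and -0.57 to 0.93 for Pcgf6. The cause was not tested. Over all genes, slopes called 209 higher and 488 lower, 275 and 183 without T7, 1 and 0 from T0 to T4, and 566 and 1166 with background subtracted; the mean contrast called 1743 and 1586, and 222 and 109 in unlabelled libraries; the trend difference called 306 and 123, and as few as 166 and 38 without replicate 2. By limma 0 members passed for half-lives under each alternative, the smallest adjusted p being 0.47 with a free starting value; at a residual standard error of at most 0.15, 5 members had a value in that test. The omission of T2 and T5, and the restriction to T0 to T4, were chosen after seeing the data.

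Same-numbered samples were not paired: over 35 pairs their deviations correlated at a mean of 0.011, and 1 pair passed 0.1. The replicate block left 3 higher, 3 lower and, for slopes, 1 in each direction. Depth limits Ring1 most, and label near background limits all slopes after 3.5 h.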

Other observations

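Within groups, after removing group means, the log2 read counts of Suz12 and Mtf2 went together over the 71 libraries (r = 0.653), whereas those of Eed and Kdm2b (r = -0.464), Ezh2 and Kdm2b (r = -0.454) and Jarid2 and Rnf2 (r = -0.407) went opposite ways. These correlations are across libraries of 1 experiment and are given as a description. Over the same libraries, the share of multimapping reads correlated with Cbx7 at -0.554, with Jarid2 at -0.471, with Kdm2b at -0.423 and with Suz12 at -0.419. For the other members it lay between -0.19 (Mtf2) and 0.247 (Rnf2). The number of counted reads correlated with Ezh2 at -0.403, with Cbx7 at 0.371, with Rnf2 at -0.342 and with Kdm2b at 0.308. For the other members it lay between -0.251 (Eed) and 0.106 (Ring1).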
